A study of Mus musculus with 4 samples.

Results

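The 10 genes described here encode collagen chains that lie mostly outside the collagen IV network of the glomerular basement membrane: Col1a1, Col1a2, Col3a1, Col5a1, Col5a2, Col6a1, Col6a2, Col6a3, Col15a1 and Col18a1. They were chosen by gene symbol, and all 10 were found among the 22809 genes of the deposited table of TPM values. TPM (transcripts per 1000000) correct each gene's reads for its length and set every library to one total. Poly(A) RNA was taken from fresh glomeruli, the tufts of capillaries that filter blood in the kidney, of mice aged 3 weeks. The tested libraries are 2 labelled HDAC KO, in which Hdac1 and Hdac2 were to be deleted in podocytes, the cells whose foot processes cover those capillaries. Both genes encode histone deacetylases that act in repressor complexes. The HDAC KO-labelled libraries were compared with 2 control libraries labelled WT, for which the labels name no treatment. Each library pooled 2 mice, the series' text speaks of 2 independent experiments, and the promoter that drives the deletion is not given in the sources used here.

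Collagens I, III and V form the fibrils of interstitial connective tissue, which fibroblasts and other mesenchymal cells lay down, and a healthy glomerular tuft holds little of them. Collagen VI forms beaded filaments close to cells and is part of the mesangial matrix. Collagens XV and XVIII, the multiplexins, carry sugar side chains and lie in or beside basement membranes, so the group is not wholly free of basement membrane components. Whole glomeruli hold mesangial, endothelial and parietal epithelial cells as well as podocytes, and in such bulk samples fewer cells of a type and less RNA per cell cannot be told apart.

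The libraries held 17476365 and 20943138 recovered reads in the HDAC KO-labelled group and 15808117 and 12876939 in the controls. Hdac1 was at 22.9 and 22.5 TPM in the HDAC KO-labelled libraries, against 19.3 and 18.6 TPM in the controls. Hdac2 was at 23.5 and 20.9 TPM in the HDAC KO-labelled libraries, against 20.2 and 24.1 TPM in the controls. Neither transcript was lower in the HDAC KO-labelled group, so the targeted genes do not check the labels, and every direction given here rests on them. Podocyte markers summed to 125 and 322 TPM in the HDAC KO-labelled libraries, against 337 and 763 TPM in the controls, and 3 of 8 lay below both controls in both HDAC KO-labelled libraries. Of all tested genes 14.3% did so. Proximal tubule markers were also present, at 2810 and 3473 TPM in the HDAC KO-labelled libraries and 38811 and 6161 TPM in control replicates 1 and 2. Kap alone made 31062 TPM of the sum in control replicate 1, and without Kap the sums were 1806 and 2271 TPM in the HDAC KO-labelled libraries, against 7749 and 5174 TPM in the controls. Among 18612 tested genes, 1 passed an adjusted p of 0.05 in limma, a linear model fitted across all genes, which is 0.00537% of them, and it was not a collagen. An exact permutation test of 2 libraries against 2 cannot go below a two-sided p of 0.333 and was not used.

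All 10 collagens had a positive difference between the HDAC KO-labelled and control libraries, and none passed the adjusted threshold. Their median log2 fold change was 1.55, against 0.17 for all tested genes. In 5 of the 10 both HDAC KO-labelled values lay above both control values, as did 36.7% of all tested genes, and in 0 of the 10 they lay below, as did 14.3%. The 5 were Col1a1, Col6a1, Col6a2, Col6a3 and Col18a1. At an unadjusted p under 0.05, 4 collagens were higher and 0 lower (Col1a1, Col6a1, Col6a3 and Col18a1), against 13.4% of tested genes higher and 4.46% lower. Median-ratio scaling moved the median of all genes from 0.17 to -0.03 and turned the unadjusted counts of 2497 higher and 831 lower genes into 1775 and 1338. Under that scaling 3 of the 4 collagens kept an unadjusted p under 0.05, without Col1a1, and the collagens' median stood 1.40 above that of all genes, against 1.39 as deposited. The median of the 10 rested on single libraries. It was 0.72 without HDAC KO replicate 2, 2.39 without HDAC KO replicate 1 and 0.98 without control replicate 1.

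**Figure D1:**
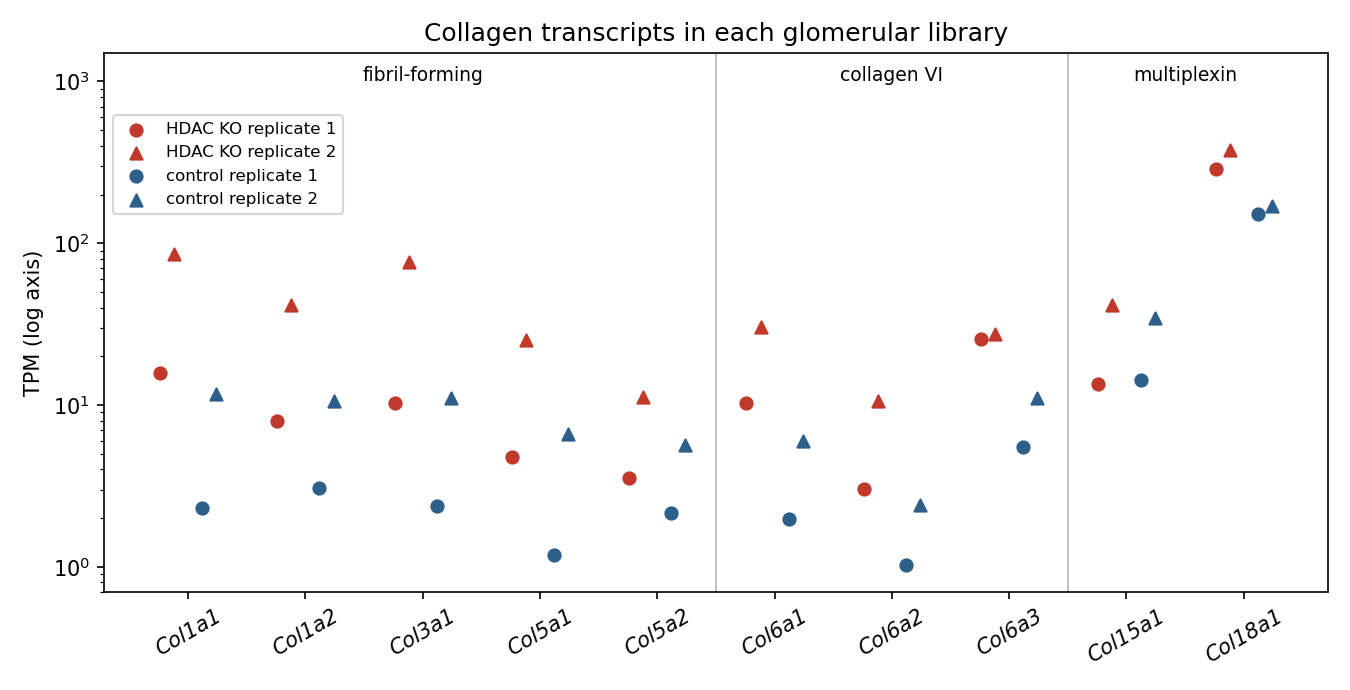
TPM of each collagen gene (log axis) in the 4 libraries, HDAC KO-labelled in red and control in blue, circles for replicate 1 and triangles for replicate 2. Col18a1 lies near 288.9 and 375.9 TPM in the HDAC KO-labelled libraries and 150.6 and 169.4 TPM in the controls, while the fibril-forming genes spread widely inside each group and HDAC KO replicate 2 is the highest library for all 10.

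Col18a1 was the most abundant of the 10 in every library and Col6a2 the least abundant. After Col18a1 the mean levels in the HDAC KO-labelled libraries ran from Col1a1 (50.6 TPM) over Col3a1 (43.4), Col15a1 (27.3), Col6a3 (26.5), Col1a2 (24.6), Col6a1 (20.3), Col5a1 (15.1) and Col5a2 (7.35) to Col6a2 (6.83 TPM). In the controls the order after Col18a1 was Col15a1 (24.5 TPM), Col6a3 (8.25), Col1a1 (7.02), Col1a2 (6.83), Col3a1 (6.68), Col6a1 (4.0), Col5a2 (3.91), Col5a1 (3.88) and Col6a2 (1.71 TPM). Col18a1 stood clear of the next gene in both groups, and Col15a1 stood clear of Col6a3 in the controls. Every other pair of neighbours in these orders had ranges that overlapped across libraries, which does not settle their order inside a library. Col6a2 was the lowest in every library, and Col1a1 exceeded Col3a1 in both HDAC KO-labelled libraries. Col3a1, in contrast, exceeded Col15a1 only in HDAC KO replicate 2 of that group. The whole reads behind a value ranged from 57 for Col6a2 in control replicate 1 to 22076 for Col18a1 in HDAC KO replicate 2.

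Sequences upstream of 3 genes are shown because Col1a2 and Col3a1 ranked the libraries in the same order and Col18a1 had a different, tighter profile. RefSeq windows of 250 bases before to 50 bases after a start site (GRCm38.p6) matched 8 of the 10 genes, all but Col1a1 and Col5a2. Capitals mark CCAAT (the CCAAT box), also GGGCGG (the GC box) and also TATAAA (the TATA box), each searched on both strands with overlapping matches counted. Col1a2 lies at chr6:4505368-4505667 on the plus strand and Col3a1 at chr1:45311288-45311587 on the plus strand. Col18a1 has an upstream start in chr10:77166481-77166780 and a downstream start in chr10:77113656-77113955, both on the minus strand.
Col1a2: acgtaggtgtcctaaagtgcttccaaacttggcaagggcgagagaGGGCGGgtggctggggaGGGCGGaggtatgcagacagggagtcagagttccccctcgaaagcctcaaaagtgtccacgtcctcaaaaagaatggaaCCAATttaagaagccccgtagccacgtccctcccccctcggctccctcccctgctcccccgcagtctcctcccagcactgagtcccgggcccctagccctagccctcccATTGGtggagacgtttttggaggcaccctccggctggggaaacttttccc
Col3a1: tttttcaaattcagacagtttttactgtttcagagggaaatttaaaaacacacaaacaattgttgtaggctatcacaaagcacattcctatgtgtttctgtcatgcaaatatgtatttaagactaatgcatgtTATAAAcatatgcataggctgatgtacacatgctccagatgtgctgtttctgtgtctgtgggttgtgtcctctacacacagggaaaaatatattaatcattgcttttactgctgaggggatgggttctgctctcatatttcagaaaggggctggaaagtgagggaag
Col18a1 upstream start: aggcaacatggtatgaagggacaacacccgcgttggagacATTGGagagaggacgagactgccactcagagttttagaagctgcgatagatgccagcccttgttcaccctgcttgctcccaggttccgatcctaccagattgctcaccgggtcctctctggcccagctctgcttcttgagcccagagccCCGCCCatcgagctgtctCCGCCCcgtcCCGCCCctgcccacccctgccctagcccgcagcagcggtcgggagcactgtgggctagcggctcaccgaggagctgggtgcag
Col18a1 downstream start: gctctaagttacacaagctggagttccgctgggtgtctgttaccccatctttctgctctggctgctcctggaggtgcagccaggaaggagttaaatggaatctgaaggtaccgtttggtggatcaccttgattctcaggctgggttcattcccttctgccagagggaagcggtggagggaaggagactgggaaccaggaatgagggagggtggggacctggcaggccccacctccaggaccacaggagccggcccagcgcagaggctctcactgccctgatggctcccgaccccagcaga

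The Col1a2 window held a CCAAT box that begins 109 bases before the start site, another at the start site, and 2 GC boxes. The Col3a1 window held neither, although Col3a1 and Col1a2 ranked the libraries in the same order. That window had a TATAAA match that begins 117 bases before the start site. The upstream Col18a1 window held 1 CCAAT box and 3 GC boxes, and the downstream window held none of the 3 motifs. Over all 10 windows of the 8 genes, 2 held CCAAT, 5 held GGGCGG and 1 held TATAAA, against 37.4%, 35.7% and 13.6% of 32851 windows of that length. Values are per gene, so they do not say which Col18a1 start was used.

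The chains of collagen I had their highest values in the HDAC KO-labelled libraries. Col1a1 (chromosome 11, 94936224 to 94953042, plus strand in GRCm38) encodes the alpha 1 chain. It was at 15.7 and 85.5 TPM in the HDAC KO-labelled libraries, against 2.30 and 11.7 TPM in the controls, from 740 and 4691 reads against 101 and 412. The groups did not overlap, but HDAC KO replicate 1 stood much closer to control replicate 2 than to HDAC KO replicate 2. The means were 50.6 ± 49.3 TPM in the HDAC KO-labelled and 7.02 ± 6.68 TPM in the control libraries (SD, n = 2 each). On the log2(TPM + 1) scale the groups were 2.55 apart, with SE 0.95 and an adjusted p of 0.254 (limma). Col1a2 (chromosome 6, 4504814 to 4541544, plus strand), which encodes the partner chain alpha 2, was at 7.95 and 41.3 TPM in the HDAC KO-labelled libraries, against 3.06 and 10.6 TPM in the controls. The groups overlapped, since HDAC KO replicate 1 lay below control replicate 2, and the log2 fold change was 1.504 (SE 0.85, adjusted p = 0.430).

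Col3a1 (chromosome 1, 45311538 to 45349706, plus strand) encodes the only chain of collagen III, which forms fibrils together with collagen I. It was at 10.3 and 76.5 TPM in the HDAC KO-labelled libraries, against 2.39 and 11.0 TPM in the controls (log2 fold change 2.21, SE 1.03, adjusted p = 0.342). HDAC KO replicate 1 lay just inside the control range, and HDAC KO replicate 2 was 7.44 times as high as it. Col5a1 (chromosome 2, 27886381 to 28039510 in RefSeq) and Col5a2 (chromosome 1, 45374321 to 45503282, minus strand, beside Col3a1) encode chains of collagen V, which helps start fibrils and sets their width. Col5a1 was at 4.80 and 25.3 TPM in the HDAC KO-labelled libraries, against 1.19 and 6.58 TPM in the controls (log2 fold change 1.60, SE 0.89, adjusted p = 0.422). Col5a2 was at 3.55 and 11.1 TPM in the HDAC KO-labelled libraries, against 2.15 and 5.67 TPM in the controls (log2 fold change 0.70, SE 0.60, adjusted p = 0.603). Both overlapped between the groups in the same way as Col1a2 and Col3a1, and Col5a2 was at -0.010 without HDAC KO replicate 2. The median of the 5 fibril-forming genes was 1.60, or 0.51 without HDAC KO replicate 2, 0.75 without control replicate 1, 2.498 without control replicate 2 and 2.69 without HDAC KO replicate 1.

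**Figure D2:**
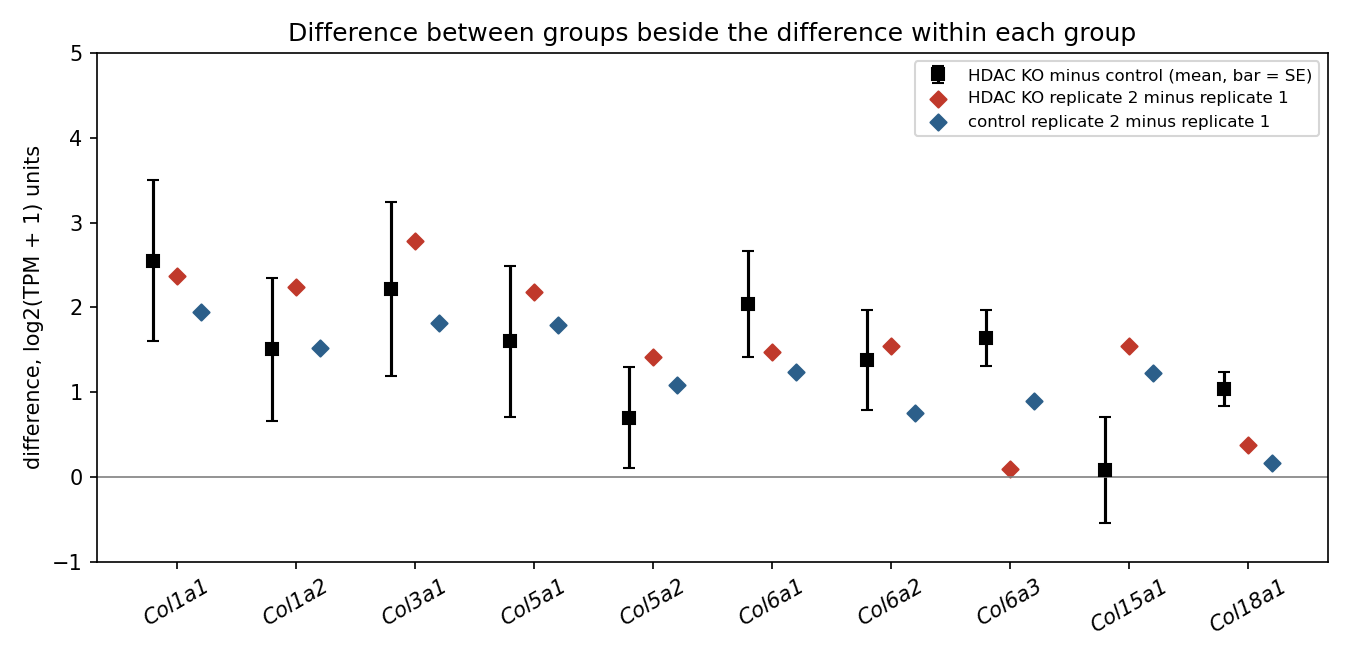
Differences in log2(TPM + 1) for each collagen gene, with the HDAC KO minus control difference (black, bar = SE from limma) beside the difference between the 2 libraries of each group (red for HDAC KO, blue for control). The SE draws on the variance of other genes. For the fibril-forming genes, the collagen VI genes and Col15a1 it is smaller than their own libraries alone would give. For Col3a1 the HDAC KO-labelled libraries differed by 2.78 and the controls by 1.82, against 2.21 between the groups, whereas for Col18a1 the within-group differences of 0.38 and 0.17 lie below the 1.04 between the groups.

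For Col1a2, Col3a1, Col5a1, Col5a2 and Col15a1 the libraries of a group differed, averaged over the groups, by more than the groups did. The median gap between replicates over the 10 genes was 1.54 log2 units for HDAC KO and 1.23 for the controls. Over all tested genes these medians were 0.20 and 0.39. Replicate 2 was above replicate 1 in both groups for all 10 genes, and HDAC KO replicate 2 was the highest library for all 10.

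The summed TPM of the 5 fibril-forming genes was 42.3 and 239.8 in the HDAC KO-labelled libraries, against 11.1 and 45.6 in the controls. That was 11.0% and 33.1% of the summed TPM of the 10 genes in the HDAC KO-labelled libraries, against 6.01% and 16.9% in the controls. Of all 42 listed collagen genes it was 2.34% and 8.31% in the HDAC KO-labelled libraries, against 0.654% and 2.82% in the controls. Most collagen transcripts were of the 6 collagen IV chains, the network of basement membranes, at 74.2% and 70.1% in the HDAC KO-labelled libraries, against 83.5% and 76.3% in the controls.

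**Figure D3:**
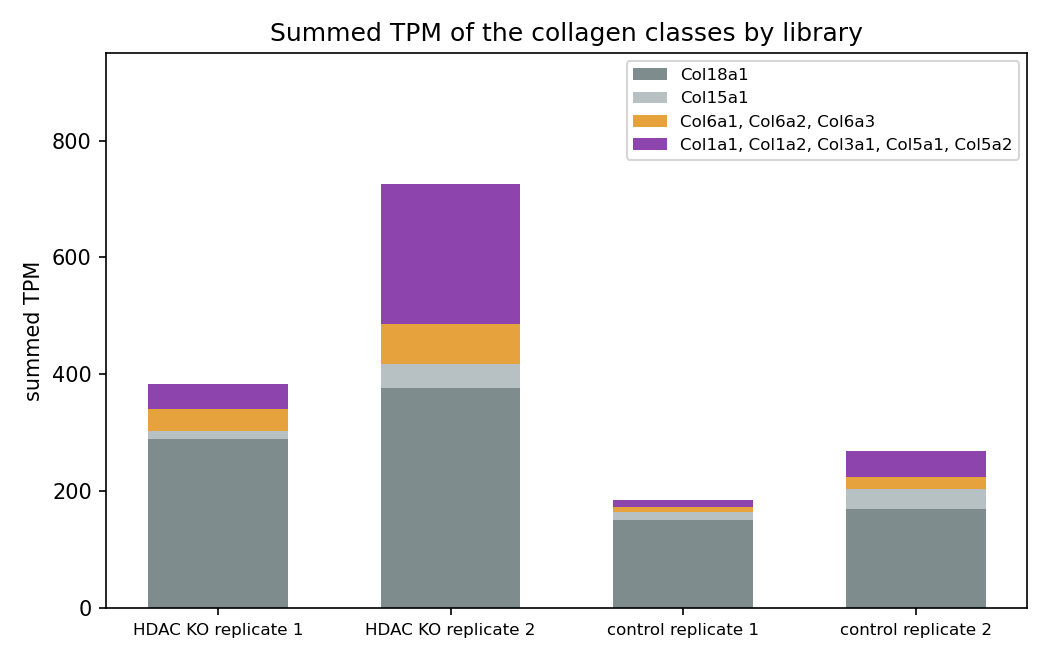
Summed TPM of the 10 genes by library, stacked by class. Col18a1 makes up 75.3% and 51.8% of the bars of HDAC KO replicates 1 and 2 and 81.7% and 62.9% of those of control replicates 1 and 2, and the fibril-forming share is largest in HDAC KO replicate 2.

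Within collagen I the chains did not differ to the same degree. The protein holds more alpha 1 than alpha 2 chains, which the TPM ratio does not measure. Col1a1 stood at 1.98 times Col1a2 in HDAC KO replicate 1 (95% counting interval 1.79 to 2.20) and 2.07 times in HDAC KO replicate 2 (1.98 to 2.16), both on the TPM scale. That scale divides by all annotated exon bases, 6563 for Col1a1 and 12426 for Col1a2, so the height of the ratio depends on these lengths. The reads were 740 and 707 in HDAC KO replicate 1, and 4691 and 4295 in replicate 2. These lengths are the same in every library, so only the difference between libraries is read. In the controls the ratio was 0.753 in replicate 1 (0.592 to 0.952) and 1.11 in replicate 2 (0.977 to 1.25). The intervals are exact binomial, cover counting error only, and do not overlap between the groups, although the levels of both genes differed several fold inside each group. No test over libraries was made. Col3a1 over Col1a1 was 0.653 and 0.895 in the HDAC KO-labelled libraries, against 1.04 and 0.935 in the controls, and the interval of HDAC KO replicate 2 (0.862 to 0.930) lay inside that of both controls (0.804 to 1.35 and 0.822 to 1.06).

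**Figure D4:**
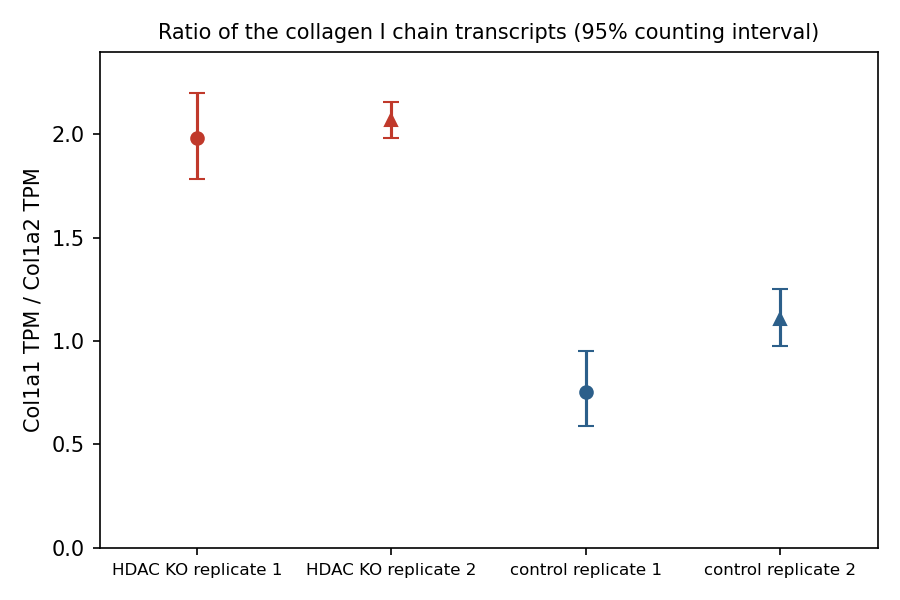
Ratio of Col1a1 to Col1a2 TPM in each library, with exact 95% binomial intervals from the reads. The HDAC KO-labelled libraries lie at 1.98 and 2.07 and the controls at 0.753 and 1.11.

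All 3 collagen VI chains lay above both controls in both HDAC KO-labelled libraries, as did 36.7% of all tested genes. Col6a3 (chromosome 1, 90765923 to 90843971, minus strand) encodes the longest of the chains. It was at 25.7 and 27.4 TPM in the HDAC KO-labelled libraries, against 5.47 and 11.0 TPM in the controls (mean 26.5 ± 1.25 TPM in HDAC KO and 8.25 ± 3.94 TPM in control, SD, n = 2 each). The log2 difference was 1.64 with SE 0.33 and an adjusted p of 0.110 in limma, and its HDAC KO-labelled libraries were nearly equal, unlike those of the fibril-forming genes. Col6a1 and Col6a2 lie next to each other on chromosome 10 (76708792 to 76726168 and 76595762 to 76623630, minus strand) and encode the chains that assemble with it. Col6a1 was at 10.3 and 30.3 TPM in the HDAC KO-labelled libraries, against 1.98 and 6.02 TPM in the controls (log2 fold change 2.04, SE 0.62, adjusted p = 0.189). Col6a2 was at 3.00 and 10.7 TPM in the HDAC KO-labelled libraries, against 1.02 and 2.40 TPM in the controls (log2 fold change 1.38, SE 0.59, adjusted p = 0.309). In the HDAC KO-labelled group replicate 2 was 2.94 times replicate 1 for Col6a1 and 3.55 times for Col6a2, against 1.07 times for Col6a3.

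The multiplexins differed from each other. Col18a1 (chromosome 10, 77052178 to 77166548, minus strand), whose product is cut to endostatin, was at 289 and 376 TPM in the HDAC KO-labelled libraries, against 151 and 169 TPM in the controls, from 14520 and 22076 reads against 7074 and 6359. The lower HDAC KO-labelled value was well above the higher control. The means were 332.4 ± 61.6 TPM in the HDAC KO-labelled and 160.0 ± 13.3 TPM in the control libraries (SD, n = 2 each), a ratio of 2.08. The log2 difference was 1.04 with SE 0.20 and an adjusted p of 0.110 in limma. Col15a1 (chromosome 4, 47208161 to 47313167, plus strand), a collagen of vessel and muscle basement membrane zones, was at 13.4 and 41.2 TPM in the HDAC KO-labelled libraries, against 14.3 and 34.7 TPM in the controls. Its groups overlapped fully, and the log2 difference was 0.08 with SE 0.62 and an adjusted p of 0.963 in limma. Its sign turned under median-ratio scaling (-0.14), under quantile normalization (-0.12), without mitochondrially encoded genes (-0.0097), without control replicate 1 (-0.53) and without HDAC KO replicate 2 (-0.69). Leaving out control replicate 2 gave Col6a3 an adjusted p of 0.0123 and Col18a1 one of 0.0484, while 1558 tested genes (8.37%) were then called higher as well. In that fit the lone control is assumed to vary like the HDAC KO-labelled libraries. Over all alternatives the adjusted p ranged from 0.0123 to 0.431 for Col6a3 and from 0.0484 to 0.498 for Col18a1.

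Other collagen genes, from a list of all further chains, gave 20 tested genes of 34, and none passed the adjusted threshold. Their median log2 fold change was 0.36, with 12 positive and 8 negative. At an unadjusted p under 0.05 in limma, 5 were higher and 2 lower, and 9 lay above and 4 below both controls in both HDAC KO-labelled libraries. Of all tested genes 13.4% were higher and 4.46% lower at that p, and 36.7% lay above and 14.3% below. Col5a3, a further collagen V chain, was at 6.69 and 17.0 TPM in the HDAC KO-labelled libraries, against 0.263 and 3.60 TPM in the controls. Col12a1 and Col14a1 encode collagens that bind the surface of fibrils. Col12a1 was at 6.29 and 11.6 TPM in the HDAC KO-labelled libraries, against 1.40 and 3.95 TPM in the controls. Col14a1 was at 5.92 and 15.8 TPM in the HDAC KO-labelled libraries, against 2.98 and 5.52 TPM in the controls. Col17a1, a transmembrane collagen of epithelial attachment, was at 8.27 and 9.75 TPM in the HDAC KO-labelled libraries, against 0.224 and 2.30 TPM in the controls (log2 fold change 2.31, SE 0.51, adjusted p = 0.124). Col27a1, which is also fibril-forming, lay the other way at 24.9 and 38.5 TPM in the HDAC KO-labelled libraries, against 58.7 and 65.1 TPM in the controls (log2 fold change -0.97, SE 0.24, adjusted p = 0.141). Further log2 fold changes were 1.37 (SE 0.58) for Col16a1, 0.47 (SE 0.30) for Col10a1, 0.44 (SE 0.29) for Col8a1 and 0.25 (SE 0.32) for Col20a1. They were negative for Col24a1 (-0.11, SE 0.36), Col11a2 (-0.29, SE 0.33), Col26a1 (-0.38, SE 0.27) and Col6a6 (-0.79, SE 0.62). The collagen IV chains split, with log2 fold changes of 0.996 (SE 0.29) for Col4a1, 0.85 (SE 0.28) for Col4a2 and 0.76 (SE 0.37) for Col4a6, and of -1.02 (SE 0.24) for Col4a3, -0.57 (SE 0.25) for Col4a4 and -0.25 (SE 0.19) for Col4a5.

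**Figure D5:**
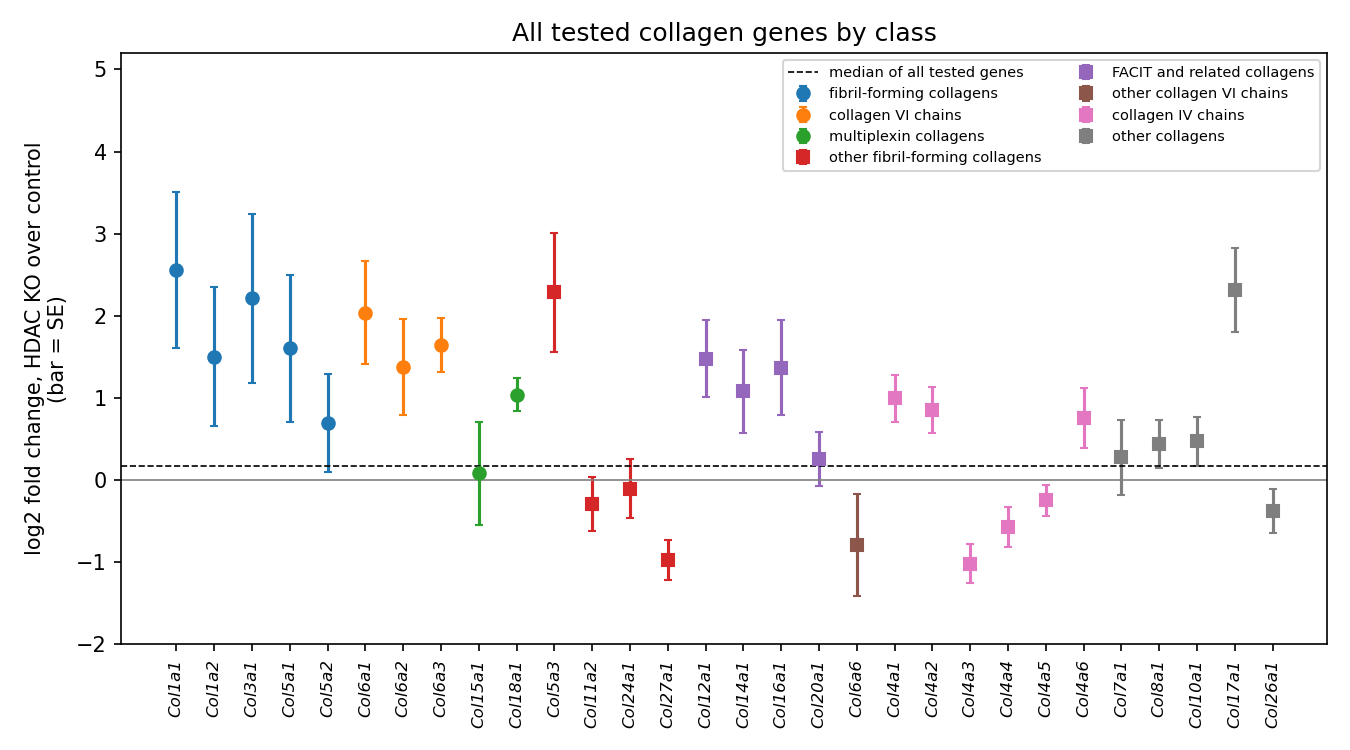
Log2 fold changes (HDAC KO over control, bar = SE) of all 30 tested collagen genes by class, circles for the 10 genes described here and squares for the others. The 10 lie at or above 0.08 with a median of 1.55, while the other 20 range on both sides of 0 around a median of 0.36. The dashed line is the median of all tested genes, 0.17.

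Genes that fold and modify collagen chains were mixed in direction. Of 17 tested genes for folding and modifying collagen chains, 8 had positive and 9 negative log2 fold changes, with a median of -0.05. At an unadjusted p under 0.05, 1 was higher and 3 lower, 5 lay above and 3 below both controls in both HDAC KO-labelled libraries, and 0 passed the adjusted threshold. Of all tested genes 13.4% were higher and 4.46% lower at that p, and 36.7% lay above and 14.3% below. Serpinh1, the collagen chaperone, was at 96.7 and 123.9 TPM in the HDAC KO-labelled libraries, against 141 and 106 TPM in the controls. P4ha1, a catalytic subunit of prolyl 4-hydroxylase, was at 25.3 and 25.7 TPM in the HDAC KO-labelled libraries, against 54.4 and 41.1 TPM in the controls (log2 fold change -0.87, SE 0.20, adjusted p = 0.126). P3h2, a prolyl 3-hydroxylase, was at 70.7 and 65.2 TPM in the HDAC KO-labelled libraries, against 112 and 118 TPM in the controls, and 28.4% of its exon bases are shared with another gene. Colgalt1 and Colgalt2, which add galactose to collagen, had log2 fold changes of 0.73 (SE 0.21) and -0.85 (SE 0.31). All 8 tested genes for trimming procollagen and cross-linking fibrils had positive values, with a median of 0.84. Before adjustment 2 were higher, against 13.4% of all tested genes. Above both controls in both HDAC KO-labelled libraries lay 5, against 36.7%, and 0 passed. Among them Loxl1, a lysyl oxidase-like enzyme, was at 4.45 and 11.6 TPM in the HDAC KO-labelled libraries, against 1.22 and 2.55 TPM in the controls. Pcolce, which enhances procollagen cleavage, was at 65.9 and 57.6 TPM in the HDAC KO-labelled libraries, against 46.6 and 41.0 TPM in the controls. The values were 0.86 (SE 0.38) for Loxl4 and 0.83 (SE 0.39) for Adamts3, a procollagen peptidase, on the log2 scale.

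Of 8 tested collagen receptors 7 had positive log2 fold changes, with a median of 0.52. Before adjustment 3 were higher, against 13.4% of all tested genes. Above both controls in both HDAC KO-labelled libraries lay 5, against 36.7% of all tested genes, and 0 passed. Ddr1, a receptor tyrosine kinase for collagen, was at 187 and 177 TPM in the HDAC KO-labelled libraries, against 108 and 84.0 TPM in the controls (log2 fold change 0.92, SE 0.19, adjusted p = 0.111). Itga1 and Itgb1, which pair into a collagen-binding integrin, had log2 fold changes of 0.60 (SE 0.23) and 0.41 (SE 0.18), and Lair1, an inhibitory collagen receptor of leukocytes, 1.32 (SE 0.33). Of 7 genes for collagen breakdown 4 were tested, with a median of 0.62 and 0 past the threshold. Before adjustment 1 was higher and without overlap, against 13.4% and 36.7% of all tested genes. Mmp14, a membrane-bound collagenase, was at 29.2 and 34.8 TPM in the HDAC KO-labelled libraries, against 3.64 and 10.3 TPM in the controls (log2 fold change 2.18, SE 0.44, adjusted p = 0.110). Ctsk, Mmp2 and Mmp13 had log2 fold changes of 0.53 (SE 0.39), 0.70 (SE 0.53) and 0.10 (SE 0.37). Of 8 tested proteoglycans and glycoproteins that associate with fibrils, 7 were positive, with a median of 0.61 and 0 past the threshold. Before adjustment 2 were higher and without overlap (Fn1 and Tnc), against 13.4% and 36.7% of all tested genes. Fn1, which encodes fibronectin, was at 36.2 and 70.8 TPM in the HDAC KO-labelled libraries, against 2.15 and 13.1 TPM in the controls (log2 fold change 2.95, SE 0.74, adjusted p = 0.142). Fbn1 and Sparc had log2 fold changes of 0.98 (SE 0.56) and 0.62 (SE 0.45), and 20.1% of the exon bases of Fbn1 are shared with another gene. Dcn, which encodes the fibril-binding proteoglycan decorin, was at 1.34 and 2.703 TPM in the HDAC KO-labelled libraries, against 1.79 and 1.76 TPM in the controls.

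Markers of the cells that could carry these transcripts were read beside them. Fibroblast markers, with 5 of 8 tested, summed to 12.2 and 28.8 TPM in the HDAC KO-labelled libraries, against 16.1 and 26.2 TPM in the controls. Pdgfra was at 1.96 and 8.03 TPM in the HDAC KO-labelled libraries, against 0.790 and 2.97 TPM in the controls, Mfap5 was listed at 0 in control replicate 1, and Lum was not analysed here. The median log2 fold change of the 5 was 0.08, with 0.59 (SE 0.31) for Dpt, 0.96 (SE 0.66) for Pdgfra, -0.40 (SE 0.52) for Pi16 and -0.62 (SE 0.63) for Clec3b. Mesangial and pericyte markers, all 9 tested, summed to 163 and 232 TPM in the HDAC KO-labelled libraries, against 144 and 224 TPM in the controls, with none at 0 and a median of 0.20. Their values were 0.58 (SE 0.21) for Cspg4, 0.50 (SE 0.35) for Notch3, 0.20 (SE 0.20) for Rgs5 and -0.36 (SE 0.21) for Agtr1a on the log2 scale. Smooth muscle and myofibroblast markers, all 5 tested, summed to 66.0 and 85.6 TPM in the HDAC KO-labelled libraries, against 80.1 and 85.7 TPM in the controls, and Acta2 was at 26.9 and 35.8 TPM in the HDAC KO-labelled libraries, against 31.6 and 26.3 TPM in the controls. The log2 values were 0.61 (SE 0.30) for Tagln, -0.23 (SE 0.24) for Myl9, -0.28 (SE 0.35) for Cnn1 and -0.50 (SE 0.20) for Myh11, and 67.9% of the exon bases of Tagln are shared with other genes. Endothelial markers, all 8 tested and all negative, summed to 267 and 539 TPM in the HDAC KO-labelled libraries, against 321 and 754 TPM in the controls, led by Ehd3 (-0.90, SE 0.52), Flt1 (-0.61, SE 0.46), Emcn (-0.57, SE 0.51) and Kdr (-0.48, SE 0.50). In these lists, as for the collagens, the sum was higher in replicate 2 than in replicate 1 of each group. The same held for the podocyte markers, with replicate 2 at 2.57 times replicate 1 in HDAC KO and 2.26 times in control. It held for the macrophage markers too (1.15 and 2.33 times), but not for the parietal epithelial and proximal tubule markers.

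Other marker lists moved with the group. Macrophage markers summed to 581 and 669 TPM in the HDAC KO-labelled libraries, against 56.4 and 131 TPM in the controls, and parietal epithelial markers to 866 and 672 TPM in the HDAC KO-labelled libraries, against 208 and 255 TPM in the controls. All 8 markers of each list lay above both controls in both HDAC KO-labelled libraries, as did 36.7% of all tested genes, and none of either list was at 0. The log2 fold changes were 2.89 (SE 0.28) for C1qa, 2.80 (SE 0.28) for C1qb, 2.701 (SE 0.35) for C1qc and 1.77 (SE 0.22) for Csf1r. Among the parietal markers they were 3.63 (SE 0.46) for Krt19, 2.01 (SE 0.22) for Krt8, 1.99 (SE 0.30) for Krt18 and 1.01 (SE 0.16) for Lad1. Podocyte markers were lower by log2 fold change for Nphs1 (-2.32, SE 0.71), Ptpro (-1.50, SE 0.58) and Podxl (-1.19, SE 0.58). Tubule markers were lower for Miox (-2.44, SE 0.30), G6pc (-2.04, SE 0.20), Lrp2 (-1.63, SE 0.27) and Slc22a8 (-1.34, SE 0.21). None of these passed the adjusted threshold. The part of any of these cell types in the collagen values was not tested.

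Set relative to the summed markers of a cell type, a comparison chosen after the values were seen, more of the 10 collagens separated by group. Relative to the endothelial markers all 10 lay above both controls in both HDAC KO-labelled libraries, against 29.9% of tested genes. Relative to the mesangial and pericyte markers 8 of the 10 did so, all but Col5a2 and Col15a1, against 24.7% of tested genes. Relative to the fibroblast markers 9 did so, all but Col15a1, against 21.0% of tested genes. Pi16 alone made 6.15 and 13.6 TPM of the fibroblast sum in the HDAC KO-labelled libraries, and 7.94 and 19.5 TPM in the controls. The whole sum in control replicate 2 was 26.2 TPM, so this 1 gene weighs heavily in the fibroblast ratios, which were not taken without it. Col3a1 per endothelial marker TPM was 0.0386 and 0.142 in the HDAC KO-labelled libraries, against 0.00744 and 0.0145 in the controls. These ratios are descriptions with no test, and any change in the markers themselves enters them.

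The genes with profiles nearest to the collagens were found by the root mean square difference of log2(TPM + 1), centred over the 4 libraries, among 7941 genes with a mean of at least 10 TPM. Nearest to the mean of Col1a1, Col1a2 and Col3a1 was H2-Eb1, an MHC class II chain, at a difference of 0.28. It was at 41.5 and 200.3 TPM in the HDAC KO-labelled libraries, against 17.1 and 38.9 TPM in the controls. Also among the nearest were the microRNA gene Mir143 (0.44), Tnc, which encodes the matrix glycoprotein tenascin C (0.47), and Mgp, which encodes matrix Gla protein (0.48). Tnc was at 10.6 and 25.8 TPM in the HDAC KO-labelled libraries, against 0.827 and 5.13 TPM in the controls. Among the 10 themselves, Col5a1 stood at 0.26 from that mean, Col6a1 at 0.40 and Col18a1 at 1.07. Nearest to Col18a1 were Lmna, which encodes the nuclear lamins A and C, Cx3cl1, a chemokine, Myd88, an innate immune adaptor, Evl, an actin regulator, and Zkscan17, at differences of 0.0540 to 0.0578. Likeness over 4 libraries is a description, and many genes can share such a profile.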

How the data were processed

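The authors deposited 1 table of TPM values. Per the submitters' processing notes the tools were fastp 0.20, STAR 2.7.9, featureCounts 2.0.0 and DESeq2 1.30.1 with GRCm38.p6. The sources used here state neither the role of each tool nor the annotation, strand setting or gene filter. Columns were matched to samples by name. Symbols were found for 22762 of 22809 genes. TPM multiplied by exon length (GENCODE M21) gave whole reads for 97.2% of genes, within a relative tolerance of 1e-06. Col5a1, whose versioned ID is not in M21, gave whole reads at a length of 8559 bases. Exons of the other 9 collagens were compared with those of other genes, and Col3a1 (1.44%) and Col15a1 (0.221%) shared bases with another gene. Mitochondrially encoded genes took 38.7% to 46.5% of TPM.

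Groups were compared by limma 3.58.1 (R 4.3.3), with a mean-variance trend, fitted to log2(TPM + 1) of the 4 libraries without covariates, leaving 2 residual degrees of freedom. The 18612 genes with a mean of at least 1 TPM entered, which included all 10 collagens, and 4197 were left out. P-values were two-sided and adjusted by Benjamini-Hochberg over all tested genes. Fold changes on this scale understate those of low genes. Each library pools 2 mice per the series' text, so the p-values measure the spread between such pools. For each gene limma also draws the variance toward the trend over all genes, with 3.42 prior degrees of freedom. Genes whose replicates lay further apart than that trend get SEs and p-values smaller than their own libraries alone would give. Among them are the fibril-forming genes, the collagen VI genes and Col15a1. The members and gene lists were chosen with earlier results of these data known. From each list the text names the up to 4 tested genes with the smallest p and every collagen with an unadjusted p under 0.05. Of the genes picked by these rules, 2 are not reported here. Col4a5, Col4a6, Serpinh1, Dcn, Mfap5, Lum, Acta2, Col19a1 and Kap are named outside that rule, after their values were seen. The fit was also run on simulated reads with less spread between libraries than the collagens had, so that run does not check the collagen results. Tables and plots were made with Python 3.11.15, numpy 2.4.6, pandas 2.3.3, scipy 1.17.1 and matplotlib 3.10.9. Alternatives were 14 planned settings, given at the end, and 3 added after seeing the data.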

Additional observations from a re-analysis of the deposited data

How the results depend on the processing

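With n = 2 per group no member was called, and 0 were called in 13 of the other 14 settings. The exception was the fit without control replicate 2. By limma as fitted, 4 members had an unadjusted p under 0.05, and by voom on the recovered reads 4 of 9 did (Col5a1 was not in that fit). The number of genes called was 1 as fitted and 0 with quantile normalization, 0 without trend and 0 with voom, where 2547 genes were above and 969 below the controls before adjustment (p under 0.05). It ranged from 0 to 2080 when single libraries were left out. Members called ranged from 0 to 2, members without overlap from 5 to 10, and the members' median log2 fold change from 0.72 to 2.39 in those fits. Over 3 libraries genes separate more easily: 10 members lay above the controls without HDAC KO replicate 1 (51.2% of tested genes), 9 without control replicate 2 (65.0%), 5 without control replicate 1 (43.3%) and 5 without HDAC KO replicate 2 (43.2%), where Col15a1 lay below. Members above the controls numbered 9 relative to the fibroblast markers (21.0% of tested genes) and 8 relative to the mesangial and pericyte markers (24.7%). They numbered 10 relative to the endothelial markers (29.9%), against 5 as deposited (36.7%). The fibroblast count was not repeated without Pi16, which made 19.5 of the 26.2 TPM of that sum in control replicate 2. The cause of the separation was not tested.

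The sign turned for Col15a1 with median-ratio scaling (-0.14), quantile normalization (-0.12), removal of mitochondrially encoded genes (-0.0097), and without control replicate 1 (-0.53) or HDAC KO replicate 2 (-0.69), and for Col5a2 without HDAC KO replicate 2 (-0.010). Over the fits without 1 library Col15a1 reached 0.85 and Col5a2 1.41. The other 8 members were positive in every setting in which they were tested. A mean of at least 5 TPM left Col6a2 out. The labels do not say what a replicate number marks, and the deviations of same-numbered libraries had a correlation over genes of 0.14. With the replicate number as a block, 1 gene and 0 members were called. At an unadjusted p under 0.05, 9 members were higher, as were 15.8% of tested genes (5.32% were lower). The lowest adjusted p of a member in that limma fit was 0.0618, shared by Col1a1, Col3a1 and Col6a1. Depth gave at least 57 reads per member and library. The counting interval of Col6a1 over Col6a2 in control replicate 1 ran from 1.32 to 2.84. How much counting error and how much the spread between libraries limit these values was not tested.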

Other observations

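Control replicate 1 stood apart for a few transcripts near the collagens. Col6a6, a further collagen VI chain, was at 0.411 and 0.639 TPM in the HDAC KO-labelled libraries, against 3.86 and 0.428 TPM in control replicates 1 and 2. Col19a1 was at 0.223 and 0.156 TPM in the HDAC KO-labelled libraries, against 2.93 and 0.299 TPM in control replicates 1 and 2. The fibroblast marker Clec3b was at 0.563 and 1.21 TPM in the HDAC KO-labelled libraries, against 4.22 and 0.566 TPM in control replicates 1 and 2. Kap, a proximal tubule transcript, was at 1004 and 1202 TPM in the HDAC KO-labelled libraries, against 31062 and 987 TPM in control replicates 1 and 2. These 4 were chosen after their values were seen, and the reason was not tested.

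Col6a1 over Col6a3 on the TPM scale was 0.401 and 1.10 in HDAC KO replicates 1 and 2, against 0.362 and 0.545 in control replicates 1 and 2. The counting interval of HDAC KO replicate 2 was 1.03 to 1.19, apart from those of the other libraries. Col6a1 over Col6a2 was 3.43 and 2.84 in the HDAC KO-labelled libraries, against 1.93 and 2.505 in the controls, and the intervals of HDAC KO replicate 2 (2.59 to 3.12) and control replicate 2 (1.93 to 3.25) overlapped.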
